A study of Mus musculus with 6 samples.

Results

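ON bipolar cells are the retinal interneurons that depolarize when light comes on. The 10 genes described here encode the cascade that lets them do so, or proteins it needs. They also include the kinase and the small protein by which rod bipolar cells, the ON cells fed by rods, are usually recognized. The members were taken by gene symbol from the deposited count table: Grm6, Trpm1, Nyx, Lrit3, Gpr179, Gnao1, Rgs11, Rgs7, Prkca and Pcp2. All 10 were among the 55376 genes of the table, and all 10 passed the filter on low counts that left 18547 genes to be tested.

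The data are RNA-seq of whole retinas of mice aged 240 days, 3 wild-type (WT) and 3 with both copies of Wfs1 disrupted (Wfs1-/-, here Wfs1-KO), each retina library from a different mouse and with no treatment stated for either group. The labels give the strain of all 6 animals as C57x129, whereas the study's methods describe a C57BL/6 J background, and the mutant allele lacks exon 8 of Wfs1, the gene of the endoplasmic reticulum protein wolframin. The library columns of the table carry a letter and a number. C was read as control, the word the methods use for WT, W as Wfs1, and the number as the replicate, so that every direction below rests on this reading. Total counts lay between 17916885 and 101334381 per library, a depth at which 3 counts, the floor used here, equal 0.0291 to 0.17 CPM, that is, counts scaled to a common library size. Wfs1 had 64.9, 61.4 and 69.9 CPM in WT replicates 1, 2 and 3 and 9.63, 0.9 and 11.5 CPM in Wfs1-KO replicates 1, 2 and 3, so the libraries read as mutant had less of the targeted transcript. The Wfs1-KO replicate 2 library stood apart, with a mean Pearson correlation of 0.937 to the other 5 over the tested genes, against 0.978 to 0.981 for each of the others, and the genotype difference of each of the 10 genes is therefore also given without it.

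In darkness, photoreceptors release glutamate steadily, and the metabotropic receptor mGluR6 (Grm6) on the ON bipolar dendrite passes this signal through the G protein Go, whose alpha subunit is encoded by Gnao1, to keep the cation channel TRPM1 closed. Light stops the release, the GTPase-activating proteins RGS7 and RGS11 switch Go off, and the channel opens. GPR179 holds these RGS proteins at the dendritic tip, and nyctalopin (Nyx) and LRIT3 are leucine-rich repeat proteins needed to bring TRPM1 there. Loss of Grm6, Trpm1, Nyx, Lrit3 or Gpr179 function causes the complete form of congenital stationary night blindness. Grm6, Trpm1, Nyx and Gpr179 are largely confined to ON bipolar cells within the retina, whereas Gnao1, Rgs7 and Prkca are also used by other retinal neurons. A count from a whole retina therefore cannot tell fewer cells of a type from less RNA per cell. Nor does such a count show which retinal cells supply Lrit3. Sums and means that include Lrit3 are therefore not taken as specific to ON bipolar cells.

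The stretches of DNA around the start sites of the receptor, of the channel it controls and of Lrit3, the member that varied most between retinas, are shown to give the promoters of the genes the values below turn on. The sequences are from RefSeq (GRCm38.p6, the build also called mm10), run 5′ to 3′ along the gene from 250 bases before to 50 bases after the annotated start, and are in lower case with any TAATCC or TAATTA, on either strand, in capitals. Grm6 lies on the plus strand (chr11:50850435-50850734), Trpm1 on the plus strand (chr7:64153585-64153884) and Lrit3 on the minus strand (chr3:129804087-129804386).
Grm6: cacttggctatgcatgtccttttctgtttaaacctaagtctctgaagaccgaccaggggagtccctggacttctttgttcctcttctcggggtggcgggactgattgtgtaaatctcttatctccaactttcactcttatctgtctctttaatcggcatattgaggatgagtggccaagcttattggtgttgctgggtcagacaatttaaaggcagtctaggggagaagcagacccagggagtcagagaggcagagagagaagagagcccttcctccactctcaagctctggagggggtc
Trpm1: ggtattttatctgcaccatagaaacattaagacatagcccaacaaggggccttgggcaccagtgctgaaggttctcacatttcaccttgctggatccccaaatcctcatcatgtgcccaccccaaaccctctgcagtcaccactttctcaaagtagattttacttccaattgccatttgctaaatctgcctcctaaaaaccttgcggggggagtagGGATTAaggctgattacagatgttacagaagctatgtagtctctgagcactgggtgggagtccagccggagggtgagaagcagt
Lrit3: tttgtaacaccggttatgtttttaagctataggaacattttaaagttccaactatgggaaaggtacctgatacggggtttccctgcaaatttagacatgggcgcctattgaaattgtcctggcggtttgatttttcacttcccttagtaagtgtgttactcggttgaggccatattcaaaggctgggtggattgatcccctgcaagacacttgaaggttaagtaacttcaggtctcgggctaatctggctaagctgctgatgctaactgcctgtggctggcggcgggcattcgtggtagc
The RefSeq start coincided with the first exon base of the count table for Grm6 and Trpm1 and lay 107 bases upstream of it for Lrit3. TAATCC, a core recognized by homeodomain factors of the OTX2 and CRX type, was present in 1 of the 13 promoters listed for 9 of the members, the one of Trpm1 printed above, where it reads GGATTA on the strand shown and begins 34 bases before the start. It was present in 7.06% of all 32851 promoters of the same length. TAATTA, a core of many homeodomain factors, was found in 1 of the 13, a Pcp2 promoter, against 5.29% of all promoters. The E-box CANNTG was found in all 13, several of which overlap each other, and in 72.3% of all promoters. Rgs11 is named without a promoter.

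Compared per length of exon, as RPKM (CPM divided by the exon length in kilobases), the 10 genes spanned a wide range in WT retinas. Pcp2, a Purkinje cell protein also abundant in rod bipolar cells and thought to modulate Go, was highest, with 92.5, 66.0 and 57.1 RPKM in WT replicates 1, 2 and 3. Gnao1 followed at 51.3 ± 1.39 RPKM (SD, n = 3) and Prkca, the protein kinase C alpha gene that serves as the common rod bipolar marker, at 43.8 ± 7.59 RPKM (SD, n = 3). Rgs11 at 30.6 ± 7.18 RPKM, Trpm1 at 27.7 ± 6.55 RPKM and Grm6 at 27.7 ± 2.01 RPKM (SD, n = 3 each) formed a middle group in which channel and receptor transcripts had the same mean. Lrit3 had 18.5 ± 5.52 RPKM, Rgs7 18.0 ± 0.856 RPKM and Gpr179 14.5 ± 2.51 RPKM (SD, n = 3 each). Nyx was lowest, with 4.82, 6.73 and 5.97 RPKM in the WT retinas, and its mean still exceeded that of 55.0% of all tested genes, while Pcp2 exceeded 96.1%.

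**Figure D1:**
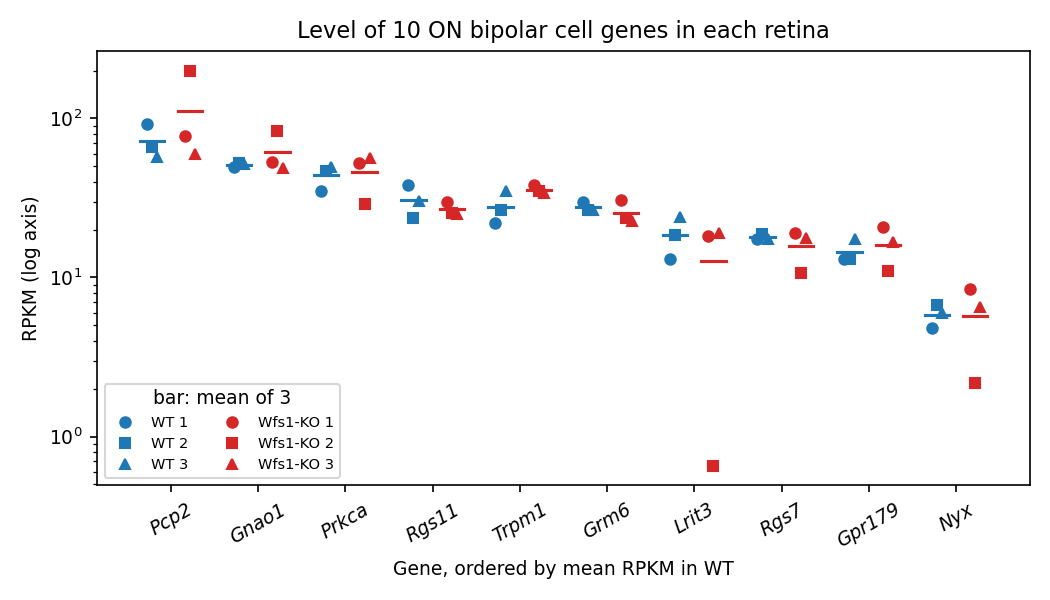
RPKM of each gene on a log axis in the 3 WT (blue) and 3 Wfs1-KO (red) retinas, with symbols for replicate numbers and bars at the mean of 3; genes run from the highest to the lowest WT mean. The colours overlap for every gene, and the red square of Wfs1-KO replicate 2 lies far below the rest for Lrit3, at 0.656 RPKM, and above the rest for Pcp2, at 200 RPKM.

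The order was firm for some neighbours and open for others. Pcp2 lay above Gnao1, Grm6 above Lrit3 and Gpr179 above Nyx in 6 of 6 retinas. Trpm1 lay above Grm6 in 4 of 6 retinas, Rgs11 above Trpm1 in 1 of 6 and Lrit3 above Rgs7 in 2 of 6. The order of these neighbours was thus not fixed over the 6 retinas. By genotype, Trpm1 lay above Grm6 in 1 of 3 WT and 3 of 3 mutant retinas. Rgs7 lay above Gpr179 in 3 of 3 WT and 1 of 3 mutant retinas. Of all 45 pairs of members, 35 kept their order in all 6 retinas, and 37 did so when Wfs1-KO replicate 2 was left out.

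None of the 10 genes differed between genotypes beyond the spread of the retinas. For every one of them the WT and Wfs1-KO levels overlapped, so 0 of 10 separated the genotypes, against 8.96% of all tested genes. At that share a count of 0 does not set the members apart. Without Wfs1-KO replicate 2, 1 of 10 separated them, Prkca with both remaining mutants above every WT retina, against 22.6% of all tested genes. In edgeR's quasi-likelihood test 0 of 10 had an adjusted p under 0.05 (background 0.0108% of tested genes) and 0 reached 0.05 before adjustment (background 2.81%). DESeq2 also called 0 of 10, adjusted (background 0.28%) or unadjusted (background 4.02%). Without Wfs1-KO replicate 2, edgeR again called 0 of 10 at either level, against 0.125% of tested genes adjusted and 5.19% unadjusted. The targeted gene Wfs1 itself did not pass edgeR's adjusted threshold on 6 retinas (log2 difference -3.15, standard error 0.77, adjusted p = 0.979). It passed with DESeq2 on 6 retinas (adjusted p = 0.00403) and with edgeR without Wfs1-KO replicate 2 (adjusted p = 2.84e-05). A count of 0 in the edgeR test of 6 retinas therefore does not show that the 10 genes are unchanged. The median log2 fold change, Wfs1-KO minus WT, was 0.02 over the 10 genes and 0.02 over all tested genes, with 5 genes above and 5 below 0.

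**Figure D2:**
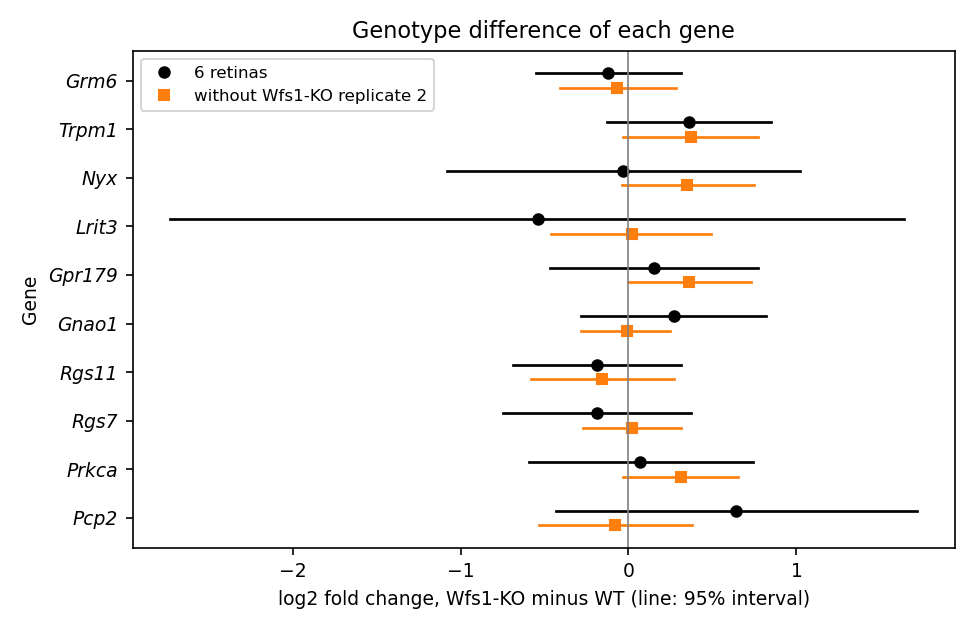
Log2 fold change of each gene, Wfs1-KO minus WT, from edgeR with its 95% interval, from all 6 retinas (black circles) and without Wfs1-KO replicate 2 (orange squares). All intervals from 6 retinas include 0; leaving out that retina narrows the interval of Lrit3 from between -2.73 and 1.64 to between -0.46 and 0.49.

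The receptor transcript had the narrowest range of the 10 over all 6 retinas. Grm6 (ENSMUSG00000000617.14, chromosome 11 of mm10, 50850685 to 50866206, plus strand) had 134, 119 and 118 CPM in WT replicates 1, 2 and 3, and 137, 105 and 101 CPM in Wfs1-KO replicates 1, 2 and 3. The highest and the lowest value were both in mutant retinas and differed by 1.35-fold. The fitted difference, Wfs1-KO minus WT, was -0.12 on the log2 scale (SE, the standard error, 0.18, 95% interval -0.55 to 0.31, edgeR adjusted p = 0.979), and -0.07 (SE 0.16) without Wfs1-KO replicate 2. The antisense gene Gm12660 shares 6.61% of its exon bases and had at most 6.15 CPM in any retina.

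The G protein subunit was tight in 5 retinas and high in the sixth. Gnao1 (ENSMUSG00000031748.16, chromosome 8, 93810838 to 93969388, plus strand) had 431, 454 and 450 CPM in WT and 460, 726 and 425 CPM in mutant replicates 1, 2 and 3. Apart from the 726 CPM of Wfs1-KO replicate 2, the retinas differed by 1.08-fold, the narrowest range of the 10 genes in these 5 libraries. Fitted over all retinas, the log2 difference was 0.27 (SE 0.24, 95% interval -0.28 to 0.82, edgeR adjusted p = 0.979) and -0.01 (95% interval -0.28 to 0.25) without that retina. Counts per gene do not separate the splice forms of the alpha subunit.

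The channel transcript lay in the upper part of the WT range or just above it in the mutants. Trpm1 (ENSMUSG00000030523.18, chromosome 7, 64153835 to 64269775, plus strand) had 174, 210 and 276 CPM in WT and 302, 277 and 269 CPM in mutant replicates 1, 2 and 3. The mutant retinas lay close together, at 283 ± 17.1 CPM (SD, n = 3), and above WT replicates 1 and 2, while WT replicate 3 reached their level. The difference on the log2 scale was 0.36 (SE 0.21, 95% interval -0.13 to 0.85, edgeR adjusted p = 0.979), and 0.37 (SE 0.18) without Wfs1-KO replicate 2. Without WT replicate 3 it was 0.54 (SE 0.22, unadjusted p = 0.0479, adjusted p = 1, edgeR), a fit in which 1.96% of tested genes had an unadjusted p under 0.05. Since the estimates for Trpm1 and Grm6 had opposite signs, their ratio was also computed within each library. Grm6 over Trpm1, in RPKM, was 1.37, 1.01 and 0.76 in WT and 0.804, 0.675 and 0.668 in mutant replicates 1, 2 and 3. WT replicate 3 fell below the highest mutant value, so the ratios overlapped too. Both overlaps rest on WT replicate 3, the library with the fewest total counts. It was also the only library with more than 2 counts of the Y-linked gene Ddx3y, with 1137. The part of sex or depth in these values was not tested.

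The proteins that place TRPM1 in the dendrite varied more. Nyx (ENSMUSG00000051228.5, X chromosome, 13466110 to 13489313, plus strand) had 25.0, 34.9 and 30.9 CPM in WT and 43.9, 11.3 and 33.6 CPM in mutant replicates 1, 2 and 3. The Nyx estimate of -0.03 on the log2 scale (SE 0.45, 95% interval -1.08 to 1.02, edgeR adjusted p = 0.994) became 0.35 (SE 0.18, 95% interval -0.04 to 0.75, adjusted p = 0.963) without Wfs1-KO replicate 2. Because Nyx is X-linked, the sex transcripts were read as well. WT replicate 3 had 4 counts of Xist and 1137 of the Y-linked Ddx3y. The other libraries had at least 10583 counts of Xist and at most 2 of Ddx3y. Scaled for depth, Xist had 159 and 417 CPM in WT replicates 1 and 2 and 771, 749 and 1140 CPM in mutant replicates 1, 2 and 3. The Nyx level of WT replicate 3 lay between those of the other WT retinas.

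Lrit3 (ENSMUSG00000093865.7, chromosome 3, 129787881 to 129804030, minus strand) had 31.9, 45.7 and 59.0 CPM in WT and 44.9, 1.61 and 47.0 CPM in mutant replicates 1, 2 and 3. The low value rested on 68 counts, against 1040 to 4628 counts in the other libraries, and set the lowest retina 36.7-fold under the highest. With it the log2 difference was -0.54 (SE 0.93, 95% interval -2.73 to 1.64, edgeR adjusted p = 0.979). Without it the estimate for Lrit3 was 0.02 (SE 0.21, 95% interval -0.46 to 0.49, adjusted p = 0.997).

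Gpr179, the orphan receptor that anchors the RGS proteins (ENSMUSG00000070337.4, chromosome 11, 97332109 to 97352016, minus strand), had 120, 121 and 161 CPM in WT and 191, 101 and 153 CPM in mutant replicates 1, 2 and 3. The lowest and the highest retina were again both mutant. Gpr179 differed by 0.15 on the log2 scale (SE 0.26, 95% interval -0.47 to 0.77, edgeR adjusted p = 0.979), and 0.36 (SE 0.17, unadjusted p = 0.0527, adjusted p = 0.962) without Wfs1-KO replicate 2. DESeq2 on the same 5 retinas gave 0.36 (unadjusted p = 0.0479, adjusted p = 0.992), and Gpr179 was the 1 member under an unadjusted 0.05 there (background 4.94%), with 0 of 10 past the adjusted threshold (background 0.49%).

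Both GTPase-activating proteins were slightly lower on average in the mutants, within the spread. Rgs11 (ENSMUSG00000024186.15, chromosome 17, 26202958 to 26211324, plus strand) had 76.2, 47.4 and 61.0 CPM in WT and 60.1, 50.8 and 50.7 CPM in mutant replicates 1, 2 and 3, so that all mutant values fell inside the WT range. The log2 difference of Rgs11 was -0.19 (SE 0.21, 95% interval -0.69 to 0.31, edgeR adjusted p = 0.979) and -0.16 without Wfs1-KO replicate 2. Rgs7 (ENSMUSG00000026527.13, chromosome 1, 175059087 to 175492500, minus strand) had 43.8, 47.6 and 43.9 CPM in WT and 47.6, 26.9 and 44.3 CPM in the mutants. Wfs1-KO replicate 2 alone was low. That of Rgs7 was -0.19 (SE 0.24, 95% interval -0.75 to 0.37, edgeR adjusted p = 0.979) and 0.02 (SE 0.13) without that retina.

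The rod bipolar markers stood on opposite sides of the other retinas in Wfs1-KO replicate 2. Prkca (ENSMUSG00000050965.14, chromosome 11, 107933387 to 108343928, minus strand) had 303, 404 and 427 CPM in WT and 453, 252 and 487 CPM in mutant replicates 1, 2 and 3. For Prkca the genotypes differed by 0.07 on the log2 scale (SE 0.28, 95% interval -0.59 to 0.74, edgeR adjusted p = 0.982), and 0.31 (SE 0.15, 95% interval -0.03 to 0.65, adjusted p = 0.963) without Wfs1-KO replicate 2. Pcp2 (ENSMUSG00000004630.18, chromosome 8, 3623371 to 3625545, minus strand) had 155, 110 and 95.6 CPM in WT and 130, 335 and 99.5 CPM in the mutants. The estimate for Pcp2 was 0.64 (SE 0.46, 95% interval -0.43 to 1.72, edgeR adjusted p = 0.979), and -0.08 (SE 0.21) without that retina. The Pcp2 count is uncertain, since 51.6% of its exon bases are shared with Pet100 on the other strand and the strand setting of the counting is not stated in the sources used here. Pet100 was also highest in Wfs1-KO replicate 2, at 23.8 CPM against 4.6 to 9.03 CPM elsewhere.

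**Figure D3:**
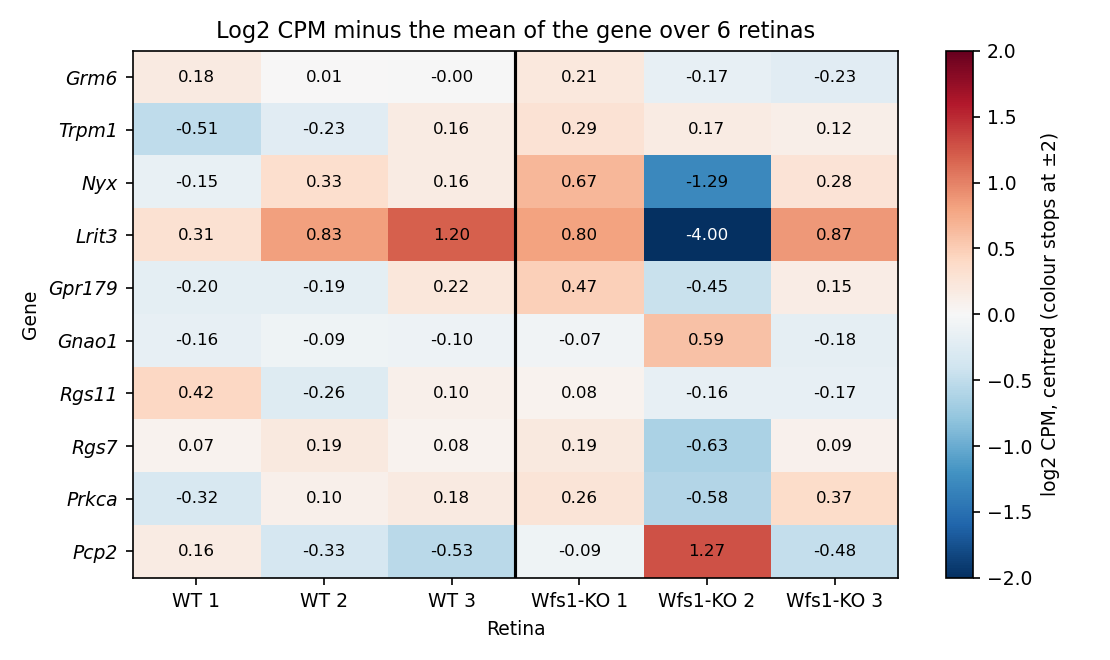
Log2 CPM of each gene in each retina minus the gene's mean over the 6 retinas, written in each cell and coloured from blue (lower) to red (higher); the line parts WT from Wfs1-KO. Wfs1-KO replicate 2 holds the extreme cells, -4.00 for Lrit3, -1.29 for Nyx and 1.27 for Pcp2, and WT replicate 1 is the lowest WT retina for Trpm1, at -0.51, and for Prkca, at -0.32.

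The widest departures of the 10 genes were in single retinas. Wfs1-KO replicate 2 was below all 5 other retinas for 5 members, Nyx, Lrit3, Gpr179, Rgs7 and Prkca, and above all of them for Gnao1 and Pcp2. Over all tested genes that library was the lowest for 36.8% and the highest for 38.4%. Against the median of the other 5 retinas (log2 ratio with 0.5 CPM added), Lrit3 stood at -4.45, the rank 9 from the bottom of 18547 genes. Nyx stood at -1.53, with 3.35% of genes at or below it, and Pcp2 at 1.6, with 95.5% at or below it. Grm6, at -0.18, and Trpm1, at 0.04, stayed near the level of the other retinas.

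In that library the ratio also followed exon length over all genes. With the tested genes parted into 5 classes of about equal number by exon length, its median was 0.62, 0.32, 0.01, -0.25 and -0.53 from the shortest to the longest class. The members departed from this trend in both directions. Lrit3, with 2456 exon bases, belonged to a class with a median of 0.32, in which 2 of 3709 genes, Lrit3 included, were as low. Gnao1, with 8676 bases, lay 1.22 above the median of the longest genes, and Nyx, with 5183 bases, 1 below it. Gpr179, at -0.07 from the median of its class, and Grm6, at 0.07, followed their length. The other members lay at 1.28 (Pcp2), 0.57 (Trpm1), -0.23 (Prkca), -0.55 (Rgs11) and -0.72 (Rgs7) from the medians of their classes. WT replicate 1 had a weaker trend of the same kind, from 0.12 in the shortest to -0.27 in the longest class, and no other library went beyond 0.09 in either. When Wfs1-KO replicate 2 was left aside, WT replicate 1 was the lowest retina for 6 members, against 28.2% of all tested genes, and Wfs1-KO replicate 1 the highest for 6, against 14%. The part of RNA quality or exon length in these differences was not tested.

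**Figure D4:**
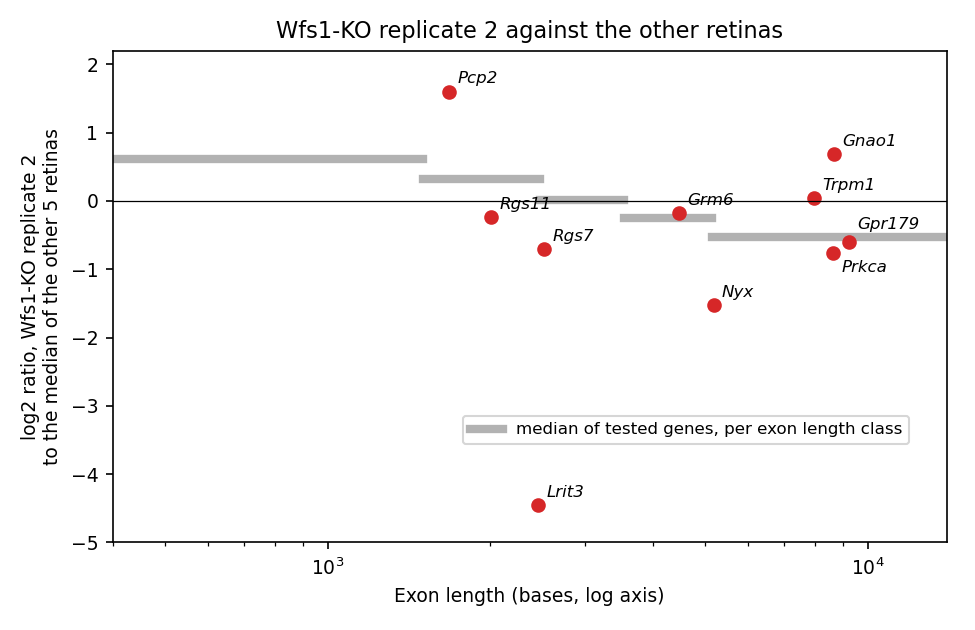
Log2 ratio of Wfs1-KO replicate 2 to the median of the other 5 retinas (CPM plus 0.5) against exon length on a log axis; red points are the 10 genes and grey bars are the medians of tested genes in 5 exon length classes, with the outer bars cut at the edges of the plot. The bars step down from 0.62 to -0.53, and Lrit3 at -4.45 and Pcp2 at 1.6 lie farthest from them.

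Markers of other tissues moved with the same library. Summed over 5 hemoglobin and erythroid genes, Wfs1-KO replicate 2 had 480 CPM, against 20.1 and 22.7 CPM in the other mutants and 12.3 to 41.2 CPM in WT, with 5 of 5 at their highest there. Hba-a1, an alpha globin gene, differed by 3.39 on the log2 scale (SE 1.34, unadjusted p = 0.0379, adjusted p = 0.979, edgeR) over 6 retinas and by 0.05 (SE 0.35) without that library. The sum of 8 pigment epithelium genes was 396 CPM, against 50.2 and 88.1 CPM in the other mutants and 112 to 167 CPM in WT (5 of 8 at their highest). Without that library 7 of these 8 genes were negative, with a median log2 difference of -1.01, 6 of them lower at an unadjusted p under 0.05. Lrat, which makes retinyl esters in the pigment epithelium, passed the threshold there, at -1.99 (SE 0.31, adjusted p = 0.0467 with edgeR and 7.79e-08 with DESeq2), and had -1.54 (SE 0.42, adjusted p = 0.979, edgeR) over 6 retinas. The sum of 6 microglia genes was 147 CPM in Wfs1-KO replicate 2, against 53.3 to 70.4 CPM elsewhere (5 of 6 at their highest), with 39.7 CPM of Cx3cr1, a microglial chemokine receptor, against 5.38 to 8.82 CPM. The 8 lens genes summed to 73.8 CPM against 24.2 to 41.4 CPM, and 71.5 CPM of it was Cryab, which glia also express. The other 7 lens genes lay under 1 CPM in every retina. Among them Cryba4, a lens crystallin, had 0.181, 0.126 and 0 CPM in WT and 0.272, 0.9 and 0.227 CPM in mutant replicates 1, 2 and 3, without overlap, and Mip, the lens channel, was at 0 in WT replicates 2 and 3 and had at most 0.136 CPM elsewhere. Rods, the presynaptic partner of rod bipolar cells, gave marker sums of 67900 to 75000 CPM in WT and of 54100 to 66900 CPM in the mutants, which do not overlap, and 0 of 9 rod markers passed edgeR's threshold. Mueller glia markers summed to 5110 to 5420 CPM in WT and 4000 to 4800 CPM in the mutants, and Glul, their glutamine synthetase, differed by -0.42 (SE 0.18, unadjusted p = 0.0466, adjusted p = 0.979, edgeR). The sums for cones, amacrine, horizontal, ganglion and endothelial cells overlapped between genotypes over 6 retinas. Without Wfs1-KO replicate 2 they no longer overlapped for cones (1090 and 1220 CPM against 1240 to 1290 CPM in WT), horizontal cells (303 and 312 against 313 to 335 CPM) and ganglion cells (647 and 735 against 770 to 897 CPM), lower in the mutants, or for amacrine cells (998 and 1010 against 844 to 939 CPM), higher in them. In that split of 5 retinas 22.6% of all tested genes did not overlap either. The sum for horizontal cells did not stand for its genes. Of the 6 horizontal genes, 4 had a positive and 2 a negative log2 difference there, with a median of 0.1. The part of all these cell types in the values of the ON bipolar genes was not tested.

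The summed RPKM of Grm6, Trpm1, Nyx, Lrit3 and Gpr179 was also set, within each library, against that of 12 OFF cone bipolar markers, genes of the cells that respond to light decrements. The ratio was 0.853, 0.928 and 1.14 in WT and 1.06, 0.772 and 0.917 in the mutants, with the genotypes interleaved.

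The wider pathway was read from lists that do not contain the 10 genes. Of the 5 postsynaptic partners, 0 passed edgeR's threshold and 0 had an unadjusted p under 0.05. Gnb3 and Gng13, the beta and gamma subunits paired with Go in ON bipolar cells, differed by 0.52 (SE 0.29) and 0.78 (SE 0.47) on the log2 scale. The estimates became 0.14 for Gnb3 (SE 0.14) and -0.04 for Gng13 (SE 0.16) without Wfs1-KO replicate 2, where Gng13 had 137 CPM against 35.4 to 49.4 CPM elsewhere. Gnb5, the beta subunit bound to the RGS proteins, had 764, 714 and 709 CPM in WT and 648, 681 and 639 CPM in mutant replicates 1, 2 and 3. It was the 1 of 5 partners whose genotypes did not overlap (background 8.96% of tested genes). The estimate for Gnb5 was -0.15 on the log2 scale (SE 0.15, adjusted p = 0.979, edgeR). Rgs9bp, the membrane anchor of RGS9 and RGS11, had 415 CPM in Wfs1-KO replicate 2 and 978 to 1260 CPM elsewhere, and Tpbg, a leucine-rich repeat protein of rod bipolar cells, had 15.6 to 25.6 CPM.

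On the photoreceptor side, where release proteins and adhesion partners face the ON bipolar dendrite, 0 of 9 genes had an unadjusted p under 0.05, with a median log2 fold change of -0.14, and 0.01 without Wfs1-KO replicate 2. Cacna2d4, a subunit of the presynaptic calcium channel, had -0.35 (SE 0.28). It was the 1 of these 9 genes without overlap, lower in the mutants (background 8.96% of tested genes). Lrit1, a relative of Lrit3, had -0.42 (SE 0.30) and Cacna1f, the pore of the presynaptic calcium channel, -0.12 (SE 0.23). Of 15 paralogs of the members, 0 had an unadjusted p under 0.05. Among them Rgs9, the RGS protein of photoreceptors, resembled Lrit3, with 254, 460 and 543 CPM in WT and 544, 19.9 and 598 CPM in mutant replicates 1, 2 and 3. On the log2 scale Lrit2 differed by -0.21 (SE 0.16) and Gnai2, a related G protein subunit, by 0.29 (SE 0.24). Lrit2 was the 1 of 15 paralogs without overlap, lower in the mutants.

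Markers of the bipolar types were present in all retinas and did not pass the test. Of the 7 other rod bipolar markers, 0 had an unadjusted p under 0.05 in edgeR, with -0.11 (SE 0.23) for Car8, -0.14 (SE 0.22) for Cabp5 and 0.05 (SE 0.16) for Ablim1. The 10 ON cone bipolar markers had a median of 0 and the 12 OFF cone bipolar markers a median of 0.09, again with 0 at an unadjusted p under 0.05. Serpini1, Kcnab1 and Igfn1 of the ON list had -0.10, 0.02 and 0.20 on the log2 scale, and Grik1, Pcdh10 and Vsx1 of the OFF list 0.05, -0.13 and 0.17. Of 13 bipolar transcription factors, 1 had an unadjusted p under 0.05. This was Irx5, a homeobox factor of bipolar cells. It had 6.94, 4.41 and 6.53 CPM in WT and 9.23, 11.0 and 8.65 CPM in mutant replicates 1, 2 and 3. The genotypes did not overlap for Irx5, as for 8.96% of all tested genes. Of the 12 OFF cone bipolar markers, 1 also did not overlap, lower in the mutants. Irx5 differed by 0.69 on the log2 scale (SE 0.25, unadjusted p = 0.0259, adjusted p = 0.979, edgeR) and 0.58 (SE 0.22) without Wfs1-KO replicate 2.

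**Figure D5:**
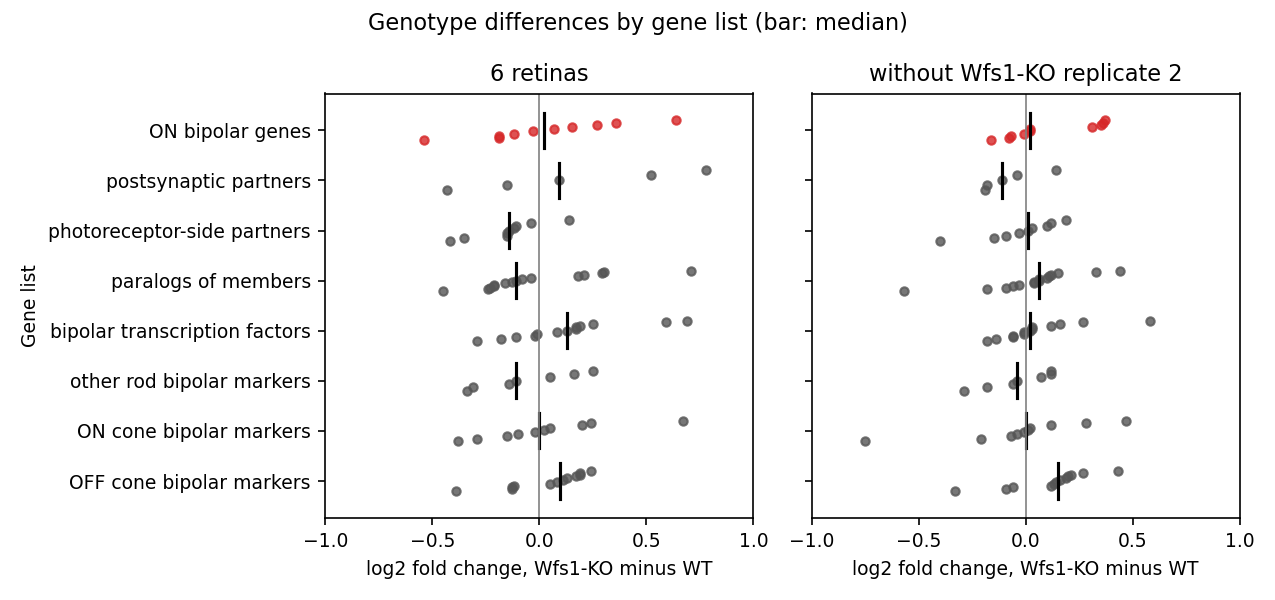
Log2 fold change, Wfs1-KO minus WT, of each tested gene in 8 lists, the 10 ON bipolar genes in red at the top, with all 6 retinas (left) and without Wfs1-KO replicate 2 (right); each point is a gene and each bar a list's median. The medians lie between -0.14 and 0.13 on the left and between -0.11 and 0.15 on the right.

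Genes whose profile over the 6 retinas was closest to the mean profile of Grm6, Trpm1, Nyx, Lrit3 and Gpr179 were Zcchc14, Dip2a, Phf2, Dvl3 and Cecr2. Their centred log2 CPM differed from it by a root mean square of 0.0344 to 0.0788, against a median of 0.512 over 11814 genes of at least 5 CPM. The mean profile was set largely by Wfs1-KO replicate 2, at -1.08. The 5 members themselves lay 0.153 (Nyx), 0.3 (Gpr179), 0.466 (Grm6), 0.568 (Trpm1) and 1.18 (Lrit3) from it. Trpm1 and Lrit3 were thus farther from it than the median of 0.512, and the mean is not a profile that the 5 share.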

How the data were processed

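Retinal RNA of 3 WT and 3 Wfs1-KO mice was sequenced. The authors trimmed the reads with Trimmomatic, mapped them to mm10 with STAR and counted them over exons per gene with featureCounts (versions 0.39, 2.5.3a and 1.6.4 per the labels, while the methods give others), and deposited raw read counts, not normalized, beside exon lengths. Columns were matched to samples by name, and 2 of the 8 library columns matched no listed sample and were not used. Testing used edgeR 4.0.16 under R 4.3.3 (a quasi-likelihood test with TMM scaling, default filter, Benjamini-Hochberg adjustment over all tested genes, threshold 0.05, two-sided). The standard error is the log2 fold change over the square root of F, and the 95% interval uses its degrees of freedom. CPM are scaled with TMM, and RPKM are CPM per 1000 bases. The floor of 3 counts covers counting error only.

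The members and all gene lists were chosen with earlier results of these data known. Named genes are the 10 members, the 5 postsynaptic partners, in each other list of the pathway and of bipolar markers those with an unadjusted p under 0.05 or else the 3 of highest mean CPM, Wfs1, Xist and Ddx3y as checks, and the 5 genes with the most similar profile. Genes of the lists for other cell types were named after their values were seen. Symbols were matched to GENCODE M21 for 98.4% of genes. Counts were also simulated with 1 common dispersion for all genes, 0.128 as fitted to the 6 retinas, and with no outlying library. There the test found 161 of 200 genes given a log2 change of 2 among 18261, and 1.83% of its calls were false. The changed genes were drawn from well-covered ones. The recovery in the real data, where the spread differs between genes and Wfs1-KO replicate 2 stands apart, was not measured. Alternatives were DESeq2 1.42.0, limma-voom (limma 3.58.1), other normalizations and filters, a replicate block and each retina left out. 1 gene of the lists, and the scaling that used it, is not reported here.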

Additional observations from a re-analysis of the deposited data

How the results depend on the processing

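The count of 10 genes past the threshold stayed at 0 in every alternative run, namely DESeq2, limma-voom, RLE and upper-quartile normalization, no filter, at least 10 counts in every retina, the replicate block, each retina left out, and DESeq2 without Wfs1-KO replicate 2. At an unadjusted p under 0.05 it was 0 to 1 with a retina left out (Trpm1 without WT replicate 3, background 1.96% of tested genes). It was 1 in DESeq2 without Wfs1-KO replicate 2 (background 4.94%). Members whose genotypes did not overlap numbered 0 of 10 over 6 retinas (background 8.96%). Without Wfs1-KO replicate 2 they numbered 1 of 10 (background 22.6%), a count added after seeing the data. Over all genes, 2 passed in the edgeR test of 6 retinas, 52 with DESeq2, 9 without a filter, 94 with DESeq2 without Wfs1-KO replicate 2 and 0 to 24 with a retina left out (0 without any 1 of the WT retinas, 1 without Wfs1-KO replicate 1 or 3, and 24 without Wfs1-KO replicate 2).

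With single retinas left out the log2 fold change ranged from -0.43 to 0.35 for Nyx, -0.96 to 0.02 for Lrit3, -0.07 to 0.36 for Gpr179, -0.01 to 0.41 for Gnao1, -0.34 to 0.02 for Rgs7, -0.1 to 0.31 for Prkca and -0.08 to 0.95 for Pcp2, each crossing 0. Leaving out Wfs1-KO replicate 2 turned the sign for Nyx, Lrit3, Gnao1, Rgs7 and Pcp2. Leaving out WT replicate 2 also turned Nyx (0.08), leaving out Wfs1-KO replicate 1 turned Gpr179 (-0.07) and Prkca (-0.03), and Prkca was also negative without WT replicate 1 (-0.07) or Wfs1-KO replicate 3 (-0.1). Grm6 (-0.27 to -0.04), Trpm1 (0.21 to 0.54) and Rgs11 (-0.35 to -0.01) kept their sign in these 6 fits. DESeq2 without Wfs1-KO replicate 2 gave 0.35 for Nyx, 0.01 for Lrit3, -0.02 for Gnao1, 0.02 for Rgs7 and -0.08 for Pcp2, opposite in sign to the values from 6 retinas, a change that follows from leaving out that retina. Normalization, filter and tool changed no sign on 6 retinas.

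Same-numbered retinas are different mice, and the correlations of their deviations from the group means were -0.335, -0.174 and 0.173, so the numbers were not taken as pairs. With a replicate block 1 gene passed over all genes and 0 of the 10, and the log2 difference moved from -0.54 to -1.22 for Lrit3, from -0.03 to -0.21 for Nyx and from 0.07 to 0.03 for Prkca. limma-voom gave -1.44, -0.21 and 0.03 for these 3 genes. The other 7 moved by less than 1.5 times in both fits. The lowest count of the 10 genes in any library was 68, and the part of depth in their values was not tested.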

Other observations

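In Wfs1-KO replicate 2 other genes were about as low as Lrit3 (the genes below were chosen after their values were seen). Gucy2f, a guanylate cyclase of photoreceptors, had 10.7 CPM there and 112 to 278 CPM in the other 5 retinas. Gabrb2, a GABA receptor subunit, had 0.568 CPM against 15.9 to 38 CPM, and Rasgrf2, a Ras exchange factor, 2.79 CPM against 47.1 to 79.3 CPM. Rgs9 ranked 5, Gucy2f 7, Rasgrf2 8 and Lrit3 9 from the bottom of the tested genes by log2 ratio to the median of the other retinas.

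Without Wfs1-KO replicate 2, 4 further genes of the pathway and bipolar lists had an unadjusted p under 0.05 in edgeR. They did not have it over 6 retinas, and none of them passed the adjusted threshold. They came from lists of 9 photoreceptor-side partners, 15 paralogs and 10 ON cone bipolar markers. The lists without a further gene held 5, 13, 7 and 12 genes. In that fit 5.19% of all tested genes had an unadjusted p under 0.05. Cabp4, a calcium sensor of the photoreceptor terminal, differed by -0.40 on the log2 scale (standard error 0.15, adjusted p = 0.8, edgeR), against -0.04 over 6 retinas. Pcp4, which like Pcp2 was named from Purkinje cells, had -0.57 (standard error 0.20, adjusted p = 0.753, edgeR) and the opposite sign, 0.71, over 6 retinas. Of the ON cone bipolar list, Sox6 had 0.47 (standard error 0.18, adjusted p = 0.821, edgeR), against 0.24, and Htr3a -0.75 (standard error 0.34, adjusted p = 0.959, edgeR), against -0.29 over 6 retinas.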
